A study of Mus musculus with 23 samples.

Results

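The mouse mitochondrial genome carries 37 annotated genes, and the members described here are all rows of the count table whose chromosome is chrM, 37 of 50123 genes. They are 13 mRNA genes, 2 rRNA genes and 22 tRNA genes. The rule used position alone and no measured value. RNA-seq was performed on fetal thymic epithelial cells (TECs) in 23 libraries of 100 sorted cells each, prepared by Smart-seq2, which copies RNA from its poly(A) tail. The study asked how loss or gain of Notch signalling alters gene expression in early TECs, and the cells were separated on PLET1, a surface marker of the founder cells of the thymic epithelium. All libraries were labelled strain C57BL/6.

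There were 3 libraries each of E12.5 PLET1+ control, E12.5 PLET1+ Rbpj cKO, E14.5 PLET1+ control, E14.5 PLET1+ Rbpj cKO, E14.5 PLET1- control and E14.5 PLET1- Rbpj cKO cells. NICD was represented by 5 libraries of PLET1+ cells at E14.5. Rbpj cKO embryos were Foxn1Cre Rbpj FL/FL and were designed to lose the DNA-binding partner of Notch in cells that express Foxn1. Controls were labelled wild type and came from the same cross of Foxn1Cre;Rbpj FL/+ with Rbpj FL/FL mice, so they carried floxed Rbpj alleles. NICD embryos were Foxn1Cre Rosa26 FL-STOP-FL-NICD-IRES-EGFP and expressed the Notch intracellular domain from the Rosa26 locus once Cre had acted. Foxn1Cre acts from about E12, so cells at E12.5 had been exposed to Cre only briefly. In every group of the Rbpj cross, replicates 1 and 2 belonged to one batch and replicate 3 to another. The NICD embryos came from a different laboratory and formed a batch of their own with no control in it, so batch, laboratory and genotype cannot be told apart in that comparison.

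Mitochondrial DNA is a compact circle that is transcribed from both strands into long precursors. The tRNAs punctuate the precursors and are cut out of them, which frees the mRNAs and rRNAs between them. The mRNAs encode core subunits of the respiratory chain complexes I, III and IV and of ATP synthase, and the rRNAs and tRNAs serve the translation of those mRNAs inside the organelle. All proteins that copy, transcribe and process mitochondrial DNA are made from nuclear genes.

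The sequence of these genes decides which of them could be counted. On chromosome 1 of GRCm38, 7 annotated genes on the minus strand, between positions 24611535 and 24616197, repeat the part of chrM from 6390 to 11042. Of the 37 members, 11 lie wholly inside this part and 2 (mt-Co1 and mt-Nd4) lie partly inside. Read pairs that align equally well to both places were not counted. Of the 75-base windows of mt-Co2, mt-Atp6, mt-Co3, mt-Nd3 and mt-Nd4l, between 97.8% and 99.9% were also present in a nuclear transcript, against 39.8% for mt-Co1, 61.5% for mt-Nd4 and 0.0% for mt-Cytb, mt-Nd1, mt-Rnr1 and mt-Rnr2. Counts of the genes inside the copied part are therefore uncertain, and their levels cannot be set beside those of the other members.

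The start of mt-Nd3, which encodes a complex I subunit, is shown beside its chromosome 1 copy Gm28438, because these 2 genes carry the largest difference described below. The sequences are from the GRCm38 transcripts of GENCODE M21. Gm28438 aligned to mt-Nd3 over 345 bases with 1 difference, T3C, counted from 1 at the first base of mt-Nd3, which is chrM position 9461. That base is in capitals. The last line is mt-Tg, the gene of the glycine tRNA, which lies directly before mt-Nd3.
mt-Nd3, chrM:9459-9518, plus strand: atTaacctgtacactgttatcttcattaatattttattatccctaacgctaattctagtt
Gm28438, chr1:24613060-24613119, minus strand: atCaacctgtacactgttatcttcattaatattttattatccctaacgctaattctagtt
mt-Tg, chrM:9391-9458, plus strand: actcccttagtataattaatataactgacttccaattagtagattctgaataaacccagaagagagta
Between mt-Nd3 and Gm28438, 268 of the 274 windows of 75 bases were shared, and all other windows held position 3 or the last bases of mt-Nd3.

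Total counts per library ranged from 20053241 to 92699969, and between 16229 and 20350 genes were detected. The mitochondrial share of all counts therefore had a 95% Wilson interval no wider than 0.0145 percentage points on either side, which covers counting error only. Levels are given as CPM, counts scaled to library size with the trimmed mean of M-values. Rbpj, the targeted gene, ranged at E14.5 from 18.4 to 20.4 CPM in the 3 PLET1+ control libraries and from 0.0610 to 10.4 CPM in the matched cKO. The NICD libraries, in which Rbpj was not deleted, had 5.27 to 24.7 CPM and overlapped the cKO. At E12.5 it had 15.1 to 37.9 CPM in controls and 2.09 to 16.2 CPM in the cKO, and the ranges overlapped. PLET1- cells at E14.5 had 3.42 to 8.28 CPM in the cKO, below the 9.49 to 26.1 CPM of their controls. No fit of Rbpj passed the test in these 3 comparisons (edgeR, adjusted p = 1.0 in each), and the counts take in all its exons, including any outside the deleted part.

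Mitochondrial genes took between 4.21% and 14.6% of the counts of a library. The 12 libraries of the E14.5 Rbpj cross fell into high and low values that followed the replicate number rather than genotype or PLET1. Replicate 1 had 9.54% in PLET1+ control, 9.15% in PLET1+ cKO, 7.80% in PLET1- control and 8.11% in PLET1- cKO. Replicates 2 and 3 had 5.32% and 4.50% in PLET1+ control, 4.21% and 5.36% in PLET1+ cKO, 4.29% and 4.60% in PLET1- control, and 4.50% and 4.57% in PLET1- cKO. In each of these 4 groups replicate 1 was the highest, although it shared its batch with replicate 2.

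At E12.5 the share was 9.80%, 9.30% and 14.001% in controls and 6.80%, 10.04% and 14.6% in the cKO, so the ranges of the genotypes overlapped. The 5 NICD libraries had 9.91%, 12.8%, 9.67%, 10.01% and 9.60%, and the lowest of them stood just above the highest E14.5 PLET1+ control. In bulk libraries, more mitochondrial RNA per cell, a different mix of cells and less nuclear-encoded RNA cannot be told apart from such a share.

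**Figure D1:**
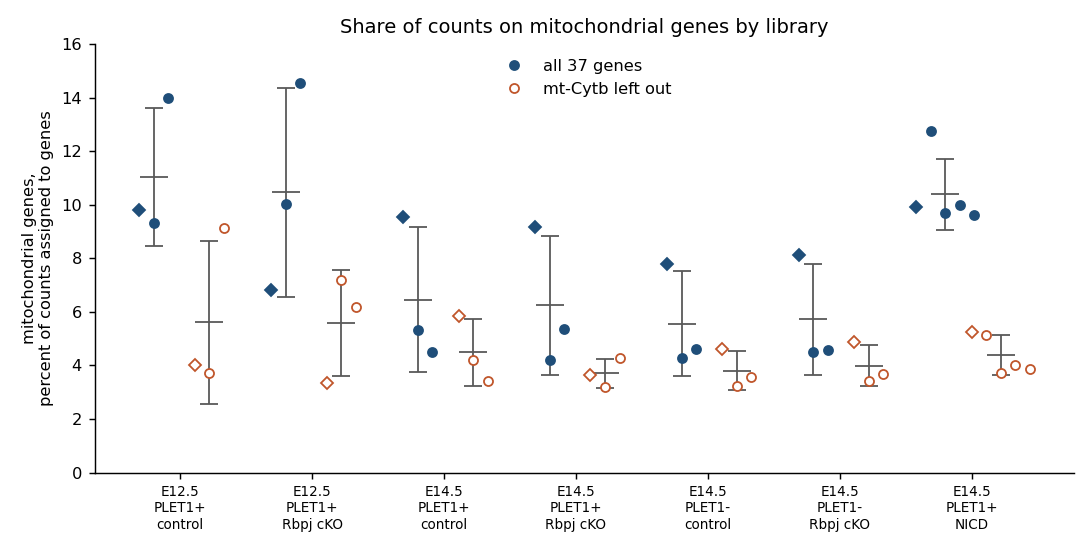
Percent of counts assigned to mitochondrial genes in each library (y axis) by group (x axis), for all 37 genes (filled) and with mt-Cytb left out of both numerator and denominator (open). Diamonds are replicate 1, circles the other replicates, and bars the mean with 1 SD. The replicate 1 diamonds stand highest in the 4 E14.5 groups of the Rbpj cross with all genes. The 5 NICD libraries stand above those 4 groups, but not above E12.5, and overlap them once mt-Cytb is left out.

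A few genes made up nearly all mitochondrial counts. In each library, the 8 members that averaged over 1% of mitochondrial counts held between 99.1% and 99.5% of them. mt-Cytb (complex III), mt-Nd1 (complex I) and mt-Co1 (complex IV) were the 3 highest members in all 23 libraries, with 75.2% to 89.4% between them. By class, mRNA genes took 3.60% to 13.7% of all counts, rRNA genes 0.359% to 1.83% and tRNA genes 0.0107% to 0.0424%. Smart-seq2 starts from the poly(A) tail, and the tails of these RNAs were not measured. These class shares and the levels per kilobase below therefore do not give the relative amounts of the RNAs in the cell.

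Per kilobase, mt-Cytb had the highest mean level over the 23 libraries, 36639 CPM per kb, followed by mt-Nd1 with 17506 and mt-Co1 with 8305. mt-Cytb was first in 15 libraries and mt-Nd1 in 8, and those 8 were replicates 2 and 3 of the 4 E14.5 groups of the Rbpj cross. mt-Co1 ranked 3 in all 23. The large ribosomal RNA mt-Rnr2 came next with 3721 CPM per kb, then mt-Nd4 with 2106, the glutamine tRNA gene mt-Tq with 1814, mt-Nd2 with 1782 and the small ribosomal RNA mt-Rnr1 with 1615. From library to library these 5 genes exchanged places, mt-Rnr2 between ranks 4 and 6 and mt-Tq between ranks 4 and 11, so their order was not fixed. mt-Co1 and mt-Nd4 lie partly inside the copied part, with 39.8% and 61.5% of their windows shared with a nuclear transcript. Their levels per kb use the whole gene length and may be understated, and so may their ranks. mt-Nd5 followed with 817 CPM per kb, the proline tRNA gene mt-Tp with 690 and mt-Nd6 with 580.

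The genes inside the copied part of chrM stood far lower on the same scale: mt-Nd3 80.0, mt-Atp6 30.1, mt-Co2 13.7, mt-Co3 12.04, mt-Atp8 7.88 and mt-Nd4l 2.28 CPM per kb. For all of them but mt-Atp8, nearly all windows were shared with a nuclear transcript, and the values give no order of the RNAs themselves. mt-Atp8, a subunit of ATP synthase, lies between 2 copied genes and shared no window with an annotated transcript, but the chromosome 1 sequence between the annotated copies was not searched.

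Among the tRNA genes, mt-Tq and mt-Tp had the highest mean levels. The methionine tRNA gene mt-Tm came next with 183 CPM per kb over all libraries, a mean that rested on NICD (417). In 5 of the 7 groups the leucine tRNA gene mt-Tl1 had the higher mean of the 2, for example 143 against 75.2 CPM per kb in E14.5 PLET1+ controls. At the low end, mt-Td and mt-Tk had 0 counts in all 23 libraries and mt-Ts1 had 6 in total. Of the 22 tRNA genes, 21 are shorter than a 75-base read, and pairs that touched 2 genes were not counted, so the counts of these genes do not measure mature tRNAs. The 3 lowest tRNA genes and mt-Tr, with 43 counts in total, did not pass the filter on low counts, which left 33 of 37 members in the tests.

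**Figure D2:**
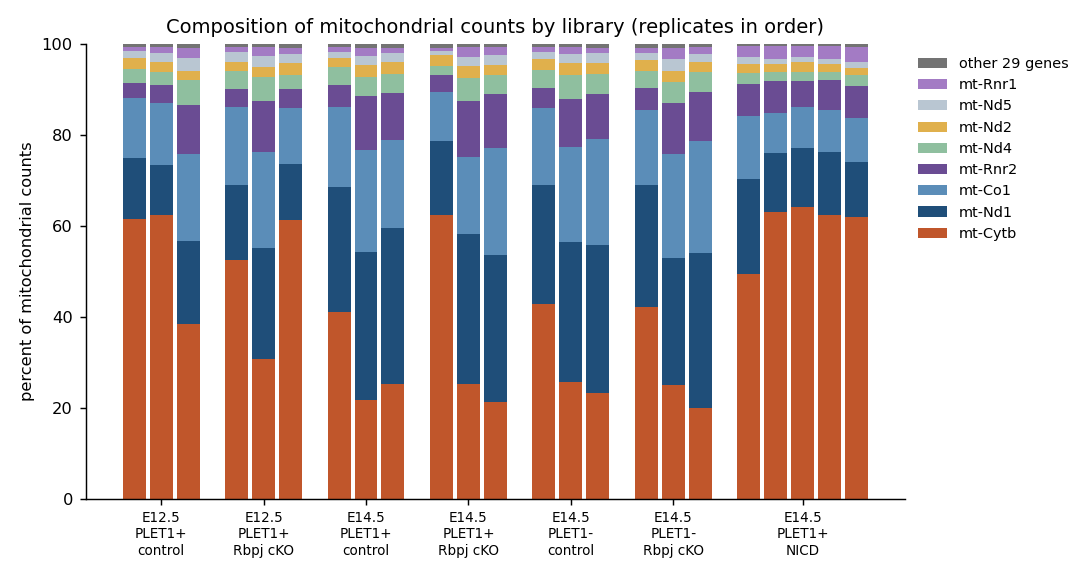
Percent of mitochondrial counts (y axis) held by the 8 most abundant members and by the other 29 genes together, in each library, with libraries ordered by replicate inside each group (x axis). mt-Cytb holds 20.0% to 64.1% of the bars and is smallest in replicates 2 and 3 of the 4 E14.5 groups of the Rbpj cross.

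mt-Cytb covered the widest range of shares of all members. It held 41.2% of mitochondrial counts in E14.5 PLET1+ control replicate 1, and 21.7% and 25.2% in replicates 2 and 3. In the PLET1+ cKO it held 62.3%, 25.1% and 21.2%, and the PLET1- libraries had 42.8%, 25.7% and 23.2% in controls against 42.1%, 25.0% and 20.0% after loss of Rbpj. At E12.5 it held 61.4%, 62.4% and 38.4% in controls and 52.4%, 30.8% and 61.2% in the cKO. The NICD libraries had 49.4%, 63.1%, 64.1%, 62.3% and 62.0%.

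In the 4 E14.5 groups of the Rbpj cross, mt-Cytb in replicate 1 was 3.61 to 7.94 times the mean of replicates 2 and 3 in CPM. The same ratio was 2.07 to 6.30 for mt-Atp6, 1.75 to 5.77 for mt-Tq, 1.82 to 3.69 for mt-Tp and 2.11 to 2.54 for mt-Nd6, but 0.868 to 1.02 for mt-Rnr2. Replicate 1 was the highest of the 3 libraries in all 4 groups for 15 of the 33 members tested, against 10.7% of the 19140 genes tested. These 15 included every mRNA gene except mt-Nd3 and mt-Nd4l, and neither rRNA gene. The labels give no property that sets these 4 libraries apart. In each of their groups they had the fewest genes detected, 16229 to 17220 against 18059 to 20350 in replicates 2 and 3, and the highest share of counts in the top 10 genes, 11.7% to 17.2% against 7.68% to 8.75%. These top 10 genes include mitochondrial genes. The part of these differences in the replicate 1 pattern was not tested. Results that rest on them are given with and without them. That alternative was chosen after the values were seen. It leaves out the libraries picked for their high mitochondrial share and mt-Cytb. Differences of NICD or E12.5 from the E14.5 PLET1+ controls in these measures therefore widen by the choice itself. The p-values of that alternative add no independent support.

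Without mt-Cytb, the mitochondrial share in the E14.5 groups of the Rbpj cross was 3.19% to 5.84%, and in NICD 3.71% to 5.27%. At E12.5 it was 3.36% to 9.12%.

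Loss of Rbpj was compared with control in the 3 sorted populations. No mitochondrial gene passed the test (edgeR's quasi-likelihood test, adjusted p at most 0.05 by Benjamini-Hochberg) in any of them. DESeq2 also called 0 members, with 319, 100 and 160 of all 19140 genes called at E12.5, in E14.5 PLET1+ and in E14.5 PLET1- cells, and limma-voom called 0 genes of any kind. At E12.5, 0 of the 33 tested members were called, against 0.0261% of all genes tested, and 0 had an unadjusted p under 0.05. Among the 15 mRNA and rRNA genes, log2 fold changes lay between -0.54 (mt-Atp8) and 0.28 (mt-Rnr2). mt-Nd1, for example, had 13340, 11018 and 27372 CPM in controls and 10859, 22380 and 23152 CPM in the cKO, and these ranges overlapped.

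In E14.5 PLET1+ cells 0 members were called, against 0.0% of all genes, and 0 had an unadjusted p under 0.05. Log2 fold changes of the mRNA and rRNA genes ran from -0.39 (mt-Nd3) to 0.91 (mt-Atp8). mt-Cytb had a log2 fold change of 0.51 (SE 0.67, adjusted p = 1.0), from 40374, 10099 and 10105 CPM in controls and 75591, 9071 and 9979 CPM in the cKO. Each genotype thus had 1 high and 2 low libraries of almost equal level. In E14.5 PLET1- cells 0 members were called, against 0.0% of all genes, and 1 had an unadjusted p under 0.05, mt-Th, the gene of the histidine tRNA. It had 0.517 CPM at most in any library, so no fold is given. The mRNA and rRNA genes lay between -0.12 (mt-Nd3) and 0.61 (mt-Atp8) on the log2 scale.

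The summed mitochondrial counts gave log2 fold changes for cKO against control of -0.12 (SE 0.40) at E12.5, 0.15 (SE 0.39) in E14.5 PLET1+ cells and 0.09 (SE 0.39) in E14.5 PLET1- cells, with adjusted p = 1.0 in each. The mean share of counts was 10.5% in the cKO against 11.03% in controls at E12.5, 6.24% against 6.45% in E14.5 PLET1+ cells, and 5.73% against 5.57% in E14.5 PLET1- cells. An exact permutation test (two-sided) gave p = 1.0, 0.8 and 0.7, and with 3 libraries against 3 it cannot fall below 0.1. Within batches the difference turned: in E14.5 PLET1+ cells it was -0.746 percentage points in the batch of replicates 1 and 2 and 0.859 in the batch of replicate 3, and at E12.5 it was -1.12 and 0.555. The direction of the share was therefore not settled in either population. In PLET1- cells it was 0.256 and -0.0292.

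Whether the effect of Rbpj loss differed between populations was tested with interaction terms. Between PLET1- and PLET1+ cells at E14.5, 0 members were called (0.0% of all genes) and 1, mt-Th, had an unadjusted p under 0.05. Between E14.5 and E12.5 PLET1+ cells, 0 members were called (0.0% of all genes) and 0 had an unadjusted p under 0.05. DESeq2 called 0 members in both, with 107 and 193 of all genes called, and limma-voom called 0 genes. For these 2 interactions, the summed mitochondrial counts gave log2 differences of -0.07 (SE 0.56) and 0.27 (SE 0.56).

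The NICD comparison asked what continuous Notch activity did in E14.5 PLET1+ cells, and it gave 3 of the 4 calls on mitochondrial genes in this series. mt-Rnr1 rose, and the counts assigned to mt-Nd3 and mt-Tg were lower, whereas the remaining 30 tested members did not pass the test. mt-Nd3 and mt-Tg lie wholly inside the copied part of chrM, so their counts do not give their levels. That is 3 of 33 members called, against 0.684% of all genes tested. Several mRNA genes had a log2 fold change near 0, with -0.19 for mt-Nd1, -0.04 for mt-Co1, 0.06 for mt-Co2, -0.19 for mt-Co3, -0.01 for mt-Nd4, and -0.19 for mt-Nd4l, while mt-Nd2 had 0.52. The SE of these values lay between 0.28 and 1.04.

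mt-Rnr1, the RNA of the small mitochondrial ribosomal subunit, had 2256, 3826, 2600, 2962 and 3649 CPM in NICD libraries and 1166, 872 and 494 CPM in controls. All 5 NICD libraries stood above all 3 controls. The log2 fold change was 1.92 (SE 0.30, adjusted p = 0.00399).

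Its partner mt-Rnr2, the RNA of the large subunit, had 6519, 9798, 6200, 7436 and 7971 CPM in NICD and 4844, 5456 and 4184 CPM in controls, with a log2 fold change of 0.65 (SE 0.34, adjusted p = 0.378). NICD libraries were higher here too, by less. The ratio of mt-Rnr1 to mt-Rnr2 counts was 0.346, 0.391, 0.419, 0.398 and 0.458 in NICD and 0.241, 0.160 and 0.118 in E14.5 PLET1+ controls. E12.5 libraries had ratios of 0.166 to 0.347, and the highest of them lay just above the lowest NICD library.

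As a share of mitochondrial counts without mt-Cytb, mt-Rnr1 was 4.78% to 8.57% in NICD and 1.64% to 3.83% in all 18 other libraries. With mt-Cytb kept it was 2.40% to 3.25% in NICD and 1.19% to 1.87% in the matched controls, but the other libraries reached 2.60%, so NICD did not stand apart from them on that scale. Leaving out E14.5 PLET1+ control replicate 3, the library with the lowest mt-Rnr1, gave an adjusted p of 0.0642. Without the 4 E14.5 replicate 1 libraries it was 0.0165. mt-Rnr1 was also not called in the edgeR fits with only the groups compared or with a replicate block. Of 19 alternative fits, those that left out 1 library included, its result was weaker in 4, with an adjusted p of up to 0.481.

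**Figure D3:**
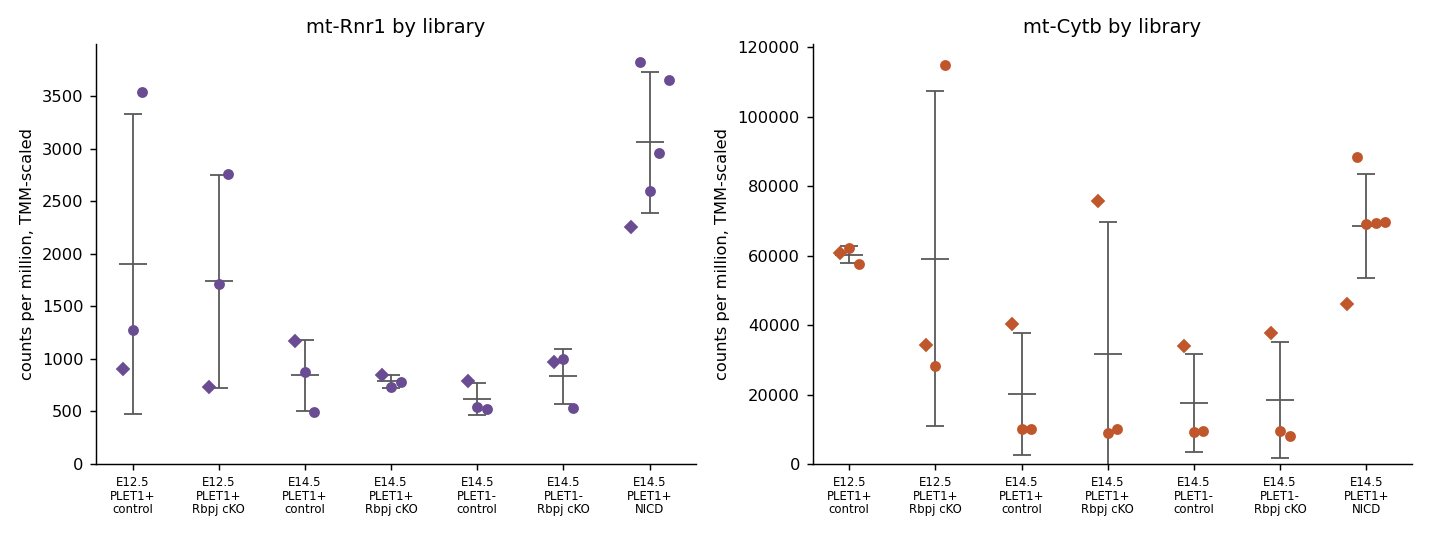
CPM of mt-Rnr1 (left) and mt-Cytb (right) in each library (y axes) by group (x axes), with diamonds for replicate 1 and bars for the mean with 1 SD, drawn from 0. mt-Rnr1 lies between 2256 and 3826 CPM in NICD and between 494 and 1166 CPM in the matched controls, and mt-Cytb in the E14.5 Rbpj cross is at most 10105 CPM except in replicate 1.

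mt-Cytb, the cytochrome b subunit of complex III, had 46132, 88291, 69245, 69378 and 69570 CPM in NICD and 40374, 10099 and 10105 CPM in controls. The groups did not overlap, but the log2 fold change of 1.88 (SE 0.64) did not pass the test (adjusted p = 0.168). Its size rested on control replicate 1: without the 4 E14.5 replicate 1 libraries it was 2.76, with an adjusted p of 0.00340. Those libraries were picked for high mt-Cytb, so leaving them out widens this difference by the choice itself. mt-Tm had 22.96, 23.2, 32.1, 36.9 and 28.8 CPM in NICD and 6.65, 4.47 and 4.44 CPM in controls, which gave a log2 fold change of 2.47 (SE 0.67, adjusted p = 0.103). Here too no libraries overlapped.

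mt-Atp6, which encodes a subunit of the proton channel of ATP synthase, had a log2 fold change of 1.41 (SE 0.66, adjusted p = 0.311), and mt-Nd5 of 0.55 (SE 0.25, adjusted p = 0.290). In all, 7 of the 33 tested members had an unadjusted p under 0.05, against 3010 of all 19140 genes tested. For 10 of the 33 tested members NICD and control libraries did not overlap, 8 higher and 2 lower in NICD, against 11.7% of all genes tested.

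mt-Nd3 had 8, 11, 10, 14 and 4 counts in the 5 NICD libraries, which is 0.0504 to 0.191 CPM. In the matched controls it had 1034, 2953 and 1888 counts, or 37.6, 53.6 and 44.8 CPM, and in the 18 libraries outside NICD it had 9.94 to 81.9 CPM. The fitted log2 fold change was -8.39 (SE 0.67, adjusted p = 1.43e-06). No other comparison had a call on mt-Nd3.

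Gm28438, the chromosome 1 copy whose first bases are printed above, showed the opposite. It had 44.9, 22.9, 25.5, 23.2 and 18.9 CPM in NICD and 0.727, 1.34 and 1.09 CPM in controls, and the counts assigned to it were higher by a log2 fold change of 4.68 (SE 0.84, adjusted p = 0.0137). Leaving out any of the 3 controls ended this call (adjusted p = 0.0843, 0.0935 and 0.111), whereas mt-Nd3 kept its call without any 1 library of this comparison. Of the counts on mt-Nd3 and Gm28438 together, mt-Nd3 took 0.263% (exact 95% interval 0.114% to 0.518%), 0.729%, 0.538%, 0.816% and 0.266% in the NICD libraries. In the 18 other libraries it took 92.3% to 98.6%. The summed level of both genes was 45.03, 23.02, 25.6, 23.4 and 19.0 CPM in NICD (mean 27.2) and 38.3, 55.0 and 45.9 CPM in controls (mean 46.4). The ranges overlapped only through NICD replicate 1.

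In the other pairs of mitochondrial gene and chromosome 1 copy, the shares in NICD and in the other libraries overlapped. mt-Atp6 took 38.7% to 46.1% of its pair in NICD and 34.1% to 49.6% elsewhere, mt-Co2 59.4% to 69.1% and 54.4% to 69.7%, and mt-Co3 40.3% to 48.6% and 40.7% to 51.2%. mt-Nd4l, with few counts, took 17.4% to 42.4% and 6.25% to 41.4%. For mt-Co1 and mt-Nd4, most of whose counts can come from outside the copy, the lowest shares were 99.9% and 99.8% in NICD and 99.8% and 99.8% elsewhere. Over their aligned bases, the copies of mt-Co2, mt-Atp6 and mt-Co3 had 0 differences from the mitochondrial genes, yet counts were assigned to both places. Gm28438 had 1 difference from mt-Nd3. What placed a read pair at mt-Nd3 or at Gm28438 was not tested, so the counts of either gene alone do not give its level. From which of these places the reads of the NICD libraries came was not tested, and the base at chrM position 9461 is not measured by these files.

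**Figure D4:**
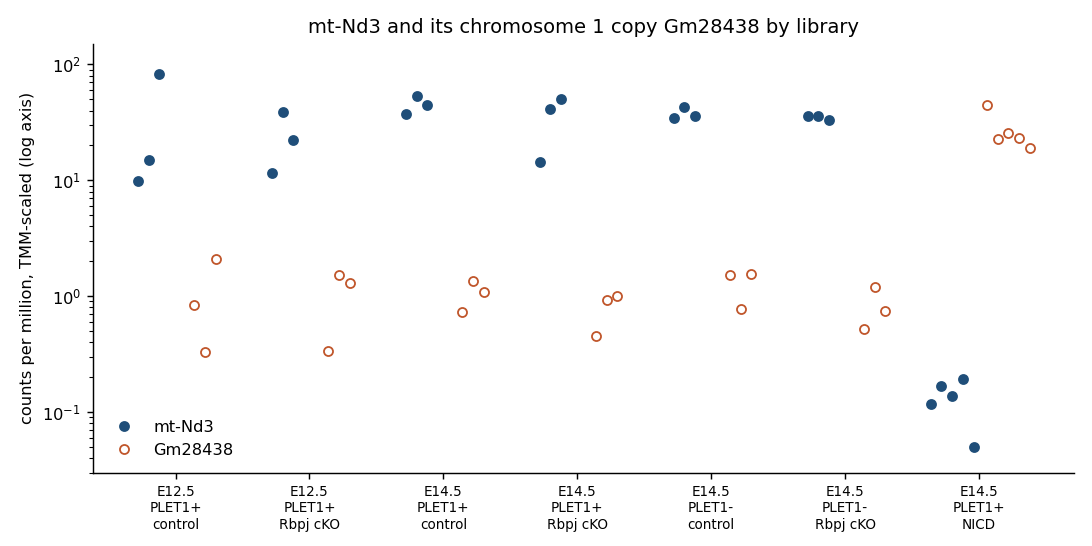
CPM of mt-Nd3 (filled) and Gm28438 (open) in each library on a log axis (y axis) by group (x axis). In the 6 groups of the Rbpj cross mt-Nd3 lies between 9.94 and 81.9 CPM and Gm28438 between 0.327 and 2.10 CPM, and in the 5 NICD libraries the order is turned, with mt-Nd3 at 0.191 CPM or less.

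mt-Tg, whose last base adjoins the first base of mt-Nd3, had 0 counts in all 5 NICD libraries and 8 to 25 counts in the 3 controls. Set against a floor of 3 counts in each NICD library, its counts were at least 10.6-fold lower, with an adjusted p of 0.0170. Its level was low in every library, at most 1.02 CPM, and leaving out any of the 3 controls ended the call (adjusted p = 0.0573, 0.0833 and 0.0942).

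The summed mitochondrial counts had a log2 fold change of 0.92 (SE 0.36, adjusted p = 0.227) for NICD against control. The share of counts was 10.4% ± 1.33 (SD, n = 5) in NICD and 6.45% ± 2.71 (SD, n = 3) in controls. The exact permutation test gave p = 0.0357, the smallest that 5 libraries against 3 allow, and 0.4999 after Benjamini-Hochberg adjustment over the 42 tests of shares. Without mt-Cytb the difference of NICD from control in mean share was -0.0890 percentage points (exact permutation p = 0.821). The sign of that value rested on control replicate 1, which had 5.84% without mt-Cytb. Control replicates 2 and 3 had 4.21% and 3.41%, and the NICD libraries 3.71% to 5.27%. The direction of the share without mt-Cytb was therefore not settled. By the same exact permutation test, the mRNA share was 9.39% against 5.82% (p = 0.107), the rRNA share 0.978% against 0.610% and the tRNA share 0.0253% against 0.0186%, the last 2 at the smallest p of the exact permutation test (0.0357, or 0.4999 adjusted).

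Of the marker genes of TECs and of other cells, 0 were called in this comparison, against 0.684% of all genes tested. The summed level of 9 mesenchyme markers was 23.2 to 426 CPM in NICD (median 294) and 2.37 to 24.4 CPM in controls (median 10.6). These ranges overlapped, with 8 of the markers higher and 1 lower in NICD, and 5 at an unadjusted p under 0.05 (edgeR). Pdgfrb was at 0 in all controls. The 4 parathyroid markers summed to 0.273 to 10.1 CPM (median 3.76) in NICD and 2.11 to 400.1 CPM (median 3.46) in controls. All 4 had a log2 fold change below 0, and 3 had an unadjusted p under 0.05 (edgeR). The summed level of 12 TEC markers was 5867 to 8354 CPM and 8059 to 8843 CPM, with 4 of them higher, 8 lower and 4 at an unadjusted p under 0.05. The 10 haematopoietic markers had 6.89 to 58.8 CPM and 17.5 to 24.8 CPM. Of them 7 were at 0 in all controls (Ptprc, Cd3e, Cd3d, Il7r, Rag1, Cd2 and Laptm5) and 2 in all NICD libraries (Cd3g and Rag1). The 8 erythroid markers had at most 1.03 CPM in either group. The 6 endothelial markers had 0.133 to 20.5 CPM and 0.145 to 2.98 CPM. The part of these markers in the mitochondrial results was not tested.

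Between E12.5 and E14.5, PLET1+ control cells differed in 1 mitochondrial gene, and that gene fell. mt-Nd5, which encodes one of the proton-pumping subunits of complex I, had 1568, 2032 and 4279 CPM at E12.5 and 1330, 925 and 754 CPM at E14.5. All E14.5 libraries stood below all E12.5 libraries. It fell by 1.28 on the log2 scale (SE 0.27, adjusted p = 0.0266), while the median over all genes tested was 0.19. This is 1 of 33 members called, against 0.967% of all genes tested.

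The call on mt-Nd5 was lost when any of 4 libraries was left out, with an adjusted p of 0.144 and 0.120 without E12.5 control replicates 2 and 3, and of 0.195 and 0.196 without E14.5 control replicates 2 and 3. Without E12.5 replicate 1 or E14.5 replicate 1 it was 0.0493 and 0.0378, and without all 4 E14.5 replicate 1 libraries 0.00870.

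Most of the other mRNA genes were also lower at E14.5 without passing the test. Of the 13 mRNA genes 11 had a log2 fold change below 0 and 2, mt-Nd1 (0.20) and mt-Nd3 (0.85), above it. mt-Nd6, the only mRNA gene on the minus strand, had 392, 449.8 and 857 CPM at E12.5 and 271, 147 and 109.7 CPM at E14.5, a log2 fold change of -1.66 (SE 0.43, adjusted p = 0.0907). Counting ignored strand, so any RNA of the opposite strand within mt-Nd6 would enter its count. The end of mt-Nd5 overlaps mt-Nd6 on that strand, but pairs over 2 genes were not counted. mt-Cytb had 60789, 62320 and 57528 CPM at E12.5, and its log2 fold change was -1.78 (SE 0.69, adjusted p = 0.302).

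mt-Rnr1 had a log2 fold change of -0.997 (SE 0.31, adjusted p = 0.169) and mt-Nd4 of -0.84 (SE 0.32, adjusted p = 0.293). With mt-Nd5, mt-Nd6 and mt-Cytb these were the 5 of 33 members with an unadjusted p under 0.05, against 2477 of all 19140 genes tested. Without the 4 E14.5 replicate 1 libraries, mt-Cytb had a log2 fold change of -2.66 (adjusted p = 0.00373), mt-Nd6 of -2.08 (adjusted p = 0.00566) and mt-Nd4 of -1.24 (adjusted p = 0.0360). As those libraries were picked for high mitochondrial values, leaving them out enlarges such falls by the choice itself. E12.5 and E14.5 libraries did not overlap for 11 of 33 members, 10 lower and 1 (mt-Tc) higher at E14.5, against 20.3% of all genes tested. As a share of mitochondrial counts, mt-Nd1 had 11.04% to 18.3% at E12.5 and 27.5% to 34.4% at E14.5, and mt-Nd6 0.396% to 0.572% and 0.273% to 0.315%, each with no overlap.

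The summed mitochondrial counts had a log2 fold change of -0.95 (SE 0.40, adjusted p = 0.338) for E14.5 against E12.5, and -1.42 (adjusted p = 0.00357) without the 4 replicate 1 libraries. The latter is enlarged by the choice of libraries left out. The mean share was 6.45% at E14.5 and 11.03% at E12.5 (exact permutation p = 0.2). Without mt-Cytb the difference was -1.13 percentage points, against -4.58 with it (exact permutation p = 0.7). No batch held both stages, so stage and batch cannot be told apart. The 4 parathyroid markers summed to 1399 to 9086 CPM at E12.5 and 2.11 to 400.1 CPM at E14.5, and the 12 TEC markers to 4689 to 5798 CPM and 8059 to 8843 CPM. Of the TEC markers 1 was called, Psmb11, a proteasome subunit of cortical TECs, which rose by 2.11 on the log2 scale (adjusted p = 0.0141). What part these played was not tested.

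**Figure D5:**
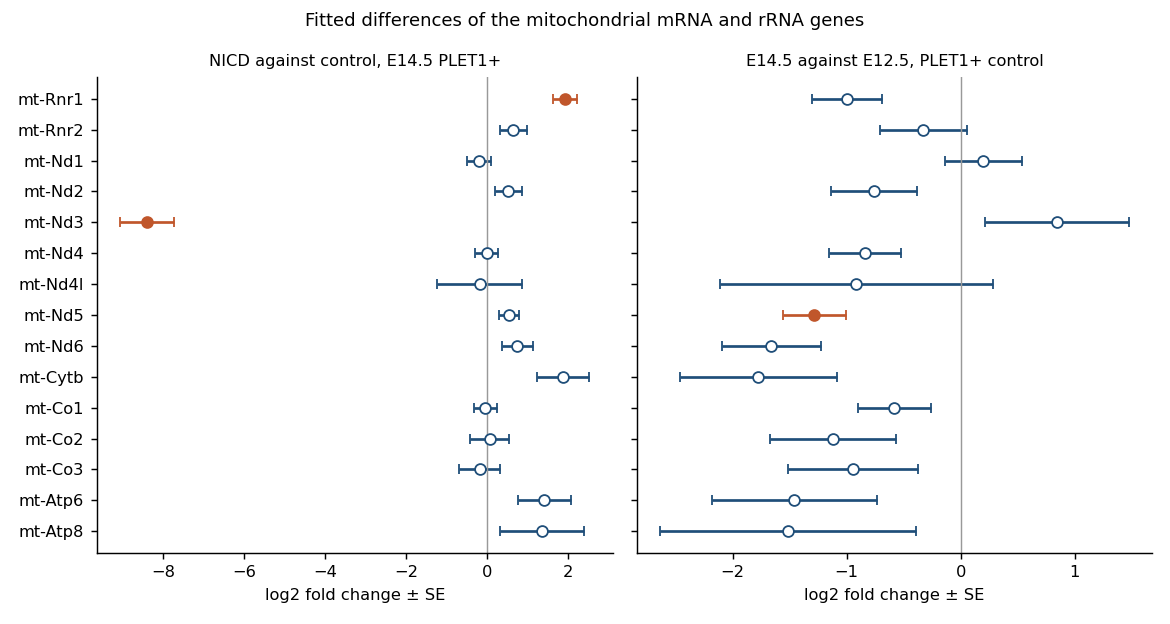
Log2 fold change with its SE (x axes) of the 13 mRNA and 2 rRNA genes (rows) for NICD against control (left) and E14.5 against E12.5 (right), with genes at an adjusted p of at most 0.05 filled. mt-Nd3 (-8.39) and mt-Rnr1 (1.92) are filled on the left and mt-Nd5 (-1.28) on the right.

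PLET1- cells were set beside PLET1+ cells of the same genotype at E14.5, a comparison of more with less advanced TECs. In controls 0 members were called, against 0.0% of all genes, and 0 had an unadjusted p under 0.05. In the Rbpj cKO 0 were called, against 0.0% of all genes, and 1, mt-Th, had an unadjusted p under 0.05. DESeq2 called 0 members in both genotypes, with 153 and 152 of all genes called, and limma-voom 0 members, with 1 and 2 of all genes. Log2 fold changes of the mRNA and rRNA genes lay between -0.39 and 0.28 in controls and between -0.73 and 0.42 in the cKO. mt-Co1 had 17106, 10461 and 7715 CPM in PLET1+ and 13418, 7470 and 9580 CPM in PLET1- controls, and mt-Nd1 had 26953, 15246 and 13823 CPM and 20785, 11029 and 13386 CPM. In both populations replicate 1 was the highest.

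The mean share of counts was 5.57% in PLET1- and 6.45% in PLET1+ controls (exact permutation p = 0.6), and 5.73% and 6.24% in the cKO (p = 0.7). Within batches the difference of PLET1- from PLET1+ was -1.38 and 0.104 percentage points in controls and -0.381 and -0.785 in the cKO. The rRNA share was lower in all 3 PLET1- controls than in all PLET1+ controls, 0.484% against 0.610%, at the smallest p that an exact permutation test of 3 against 3 allows (0.1, adjusted 0.750). In the cKO it was 0.553% against 0.577% (exact permutation p = 0.9), and the libraries overlapped. The 9 mesenchyme markers summed to 5.59 to 1181 CPM in PLET1- controls (median 456) and to 2.37 to 24.4 CPM in PLET1+ controls (median 10.6). These ranges overlapped, with 5 of the markers at an unadjusted p under 0.05 and 0 called. The 4 parathyroid markers summed to 2.17 to 1558 CPM (median 919) in PLET1- controls and to 2.11 to 400.1 CPM (median 3.46) in PLET1+ controls. These ranges overlapped too, and in the cKO the medians were 255 and 4.93 CPM. The 12 TEC markers summed to 10660 to 13131 CPM in PLET1- controls and to 8059 to 8843 CPM in PLET1+ controls. The part of these markers in the rRNA share was not tested.

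Of the nuclear genes that serve mitochondrial DNA, 44 were listed, for its transcription, replication, RNA processing, RNA stability and regulation. All 44 were tested, and 0 were called in any comparison. Over all genes tested, 0.684% were called in NICD, 0.967% at E14.5 against E12.5 and fewer in the other comparisons. At such shares, 0 calls do not set a list of this size apart from other genes. In NICD against control 22 had a log2 fold change above 0 and 22 below it, with a median of 0.06 against 0.04 over all genes. At E14.5 against E12.5 there were 18 above and 26 below, with a median of -0.27 against 0.19 over all genes.

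Tfam, which packages mitochondrial DNA and opens its promoters, was at 65.6 to 256 CPM in the 23 libraries. Polrmt, the mitochondrial RNA polymerase, was at 0.0 to 28.3 CPM, and Tfb2m, its initiation factor, at 3.08 to 38.0 CPM. In NICD against control the log2 fold change was 0.62 for Tfam (SE 0.31, adjusted p = 0.347), 0.39 for Polrmt (SE 1.59, adjusted p = 0.972) and -0.64 for Tfb2m (SE 0.62, adjusted p = 0.703). These 3 genes were chosen by their role, and none was called in any comparison.

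Nuclear subunits of the respiratory chain and ATP synthase, partners of the mitochondrial proteins in the same complexes, were not called either. Of 75 listed, 73 were tested, and at the shares over all genes given above, 0 calls do not set them apart. In NICD 49 had a log2 fold change above 0 and 24 below it, with a median of 0.37 against 0.04 over all genes. Loss of Rbpj gave 69 above and 4 below in E14.5 PLET1- cells (median 0.15), 60 above and 13 below in E14.5 PLET1+ cells (median 0.17), and 40 above and 33 below at E12.5 (median 0.01). At E14.5 against E12.5 there were 20 above and 53 below, with a median of -0.28 against 0.19 over all genes. The 76 tested genes of mitochondrial ribosomal proteins had medians of 0.33 in NICD and -0.23 at E14.5 against E12.5, with 0 called, which does not set them apart either. The NICD and stage comparisons share the E14.5 PLET1+ control libraries, as does the PLET1+ cKO comparison at E14.5, so their signs are not independent of each other. Genes of a list were measured in the same few libraries, so their signs are not independent either, and the sign counts were not tested.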

How the data were processed

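The deposited table held whole-number counts per gene for 23 libraries of 100 sorted cells. Per the labels and the study's methods, the authors trimmed 75-base read pairs with Trimmomatic 0.32, aligned them to GRCm38 (mm10) with STAR 2.5.1a and counted them with featureCounts on GENCODE M12, without strand. The submitters' processing notes name featureCounts 1.5.1 and the file header 1.5.0-p3. Multi-mapping pairs and pairs over 2 genes were not counted. All library columns were used and 0 were left out.

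Counts were fitted in all 23 libraries together with edgeR 4.0.16 (R 4.3.3) on 19140 genes kept by filterByExpr, with TMM scaling, 7 group means and a batch term within E12.5 and within the E14.5 Rbpj cross. The quasi-likelihood test was two-sided, p-values were adjusted by Benjamini-Hochberg over all 19140 genes, and the threshold for a call was an adjusted p of 0.05. The summed mitochondrial counts were fitted as added features. Alternatives used DESeq2 1.42.0 and limma-voom (limma 3.58.1). Shares were compared by exact permutation tests (scipy 1.17.1). P-values measure the spread between libraries, and for NICD that of embryos of 1 litter.

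The text names all mRNA and rRNA genes, tRNA genes that were called or were among the 3 highest or 3 lowest per kilobase, called genes of the nuclear and marker lists (at most 3 per list and direction), the chromosome 1 copies and Rbpj. mt-Th, mt-Tc, mt-Tl1, mt-Tn, mt-Tr, Tfam, Polrmt, Tfb2m and the markers listed at 0 fall outside this rule and were added after values were seen. Members and lists were chosen with earlier results of these data known. Replicate numbers paired the samples in the 4 comparisons within the E14.5 Rbpj cross: over 8467 genes, correlations of deviations for the same number were 0.261 to 0.556. The pairing changed no call there.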

Additional observations from a re-analysis of the deposited data

Results flagged for a closer look

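Among the 5 NICD libraries, 2 values of replicate 2 stood apart from the other 4 libraries by Dixon's criterion, in 35 checks, of which chance gives about 1 in 20. Its mitochondrial share of counts was 12.8%, against 9.60% to 10.01% in the other 4. Its level of mt-Tn, the gene of the asparagine tRNA, was 1.40 CPM. No interaction term was called for a mitochondrial gene.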

How the results depend on the processing

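The 0 mitochondrial calls in the Rbpj cKO and PLET1 comparisons and both interactions held under all alternatives run. For NICD, 3 calls became 5 with DESeq2, limma-voom or a replicate 1 term, 1 with only the groups compared, and 1 to 3 leaving out 1 library. For stage, 1 call became 3 with DESeq2, limma-voom or a replicate 1 term, 4 without the filter or the 4 E14.5 replicate 1 libraries, 0 without batch terms or with only the groups compared, and 0 to 1 leaving out 1 library. Over all genes, DESeq2 called 1236 (NICD) and 1284 (stage) and limma-voom 998 and 448, against 131 and 185. In NICD limma-voom moved the median log2 fold change of all genes to -0.53, from 0.04, and 216 of its 998 calls were higher, against 51 of 131. The stricter filter left no value for mt-Tg. The causes were not tested.

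With a replicate block, NICD and stage had 0 mitochondrial calls, in fits that called 1 of 14846 and 2 of 14691 genes, and the NICD share differed by 4.33 (exact permutation p = 0.25, the smallest that 3 pairs allow). Same-numbered samples did not deviate together in these comparisons (correlations -0.169 to -0.0213 and -0.101 to 0.0248) or at E12.5 (-0.0926 to 0.0461). The block changed no other call.

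The summed log2 fold change for NICD was 1.22 (limma-voom, adjusted p = 0.0260), 1.39 (without the 4 libraries, 0.00365) and 0.99 (replicate 1 term, 0.0236), and for stage -1.42 and -1.03 (0.00357 and 0.0264, the last 2 settings). Leaving out those 4 libraries, picked for high shares, widens both differences by the choice itself. The summed log2 fold change reversed to -0.051 for E14.5 PLET1+ cKO without the 4 libraries, and to 0.15 and 0.14 for PLET1 in control and cKO with limma-voom. Leaving out 1 library gave -0.34 to 0.050 (E12.5 cKO), -0.38 to 0.55 (E14.5 PLET1+ cKO), -0.25 to 0.36 (PLET1- cKO), -0.48 to 0.14 (PLET1, control) and -0.66 to 0.26 (PLET1, cKO).

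The NICD share difference was 3.57 without rRNA genes (permutation p = 0.107), -0.0890 without mt-Cytb, 5.48 without the 4 libraries (p = 0.0952) and 2.96 to 5.48 leaving out 1 library. The share difference turned to 0.0916 for E14.5 PLET1+ cKO without the copied genes and to 0.282 for PLET1 in the cKO without mt-Cytb. Leaving out 1 library gave -2.61 to 1.27 (E12.5 cKO), -1.67 to 1.33 (E14.5 PLET1+ cKO), -1.03 to 1.28 (PLET1- cKO), -2.01 to 0.657 (PLET1, control) and -1.71 to 0.940 (PLET1, cKO).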
